A study of Mus musculus with 49 samples.

Results

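The DNA replication genes described here are 45 mouse genes, listed by name, that encode the proteins which mark replication origins, load and start the replicative helicase, copy the DNA, supply its precursors and repack it behind the fork. All 45 of 45 were found among the 24062 genes of the RNA-seq read count table, and all 45 were among the 14837 genes that passed the filter on low counts, so every one was tested. By role they are 6 subunits of the origin recognition complex, 2 licensing loaders, 6 MCM helicase subunits, 6 helicase activation factors, 9 primase and DNA polymerase subunits, 6 genes of the sliding clamp and its loader, 3 single-strand binding subunits, 2 genes of Okazaki fragment maturation, 3 of nucleotide supply and 2 of chromatin assembly.

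RNA was sequenced from crypt cells of the proximal small intestine of adult mice on a mixed B6;129 background, in 25 libraries of 12 groups, with 3 libraries for Lgr5-GFP-Cre and Bmi1-GFP cells, 1 for irradiated Bmi1-GFP cells and 2 for each other group. The reference group in most comparisons was the Lgr5-GFP-Cre stem cells, sorted as GFP-high from mice with the Lgr5EGFP-IRES-CRE-ERT2 allele. Lgr5-GFP-DTR stem cells were sorted as GFP-positive from Lgr5EGFP-DTR mice that had received no toxin per the labels. Bmi1-GFP cells came from Bmi-1GFP/+ mice, and 1 further library came from such mice 36 h after 10 Gy to the whole body. Crypts labelled enterocyte progenitors were from Atoh1 F/F; Villin-CRE mice, in which an intestinal epithelial driver removes the secretory-lineage factor Atoh1, given 1 mg tamoxifen on 5 days and taken 3 weeks later. Crypts labelled secretory progenitors were from Atoh1 F/F mice with no Cre named, given the Notch inhibitor DBZ at 48 mg/kg at the start and at 12 h and taken at 38 h (the DBZ crypts). A further set came from Rbpj F/F; Villin-CRE mice, which lose a Notch effector, given 2 mg tamoxifen per dose on 2 days and taken on day 3 (the Rbpj crypts). These 3 kinds of crypt were not sorted, so each is a mixture of whichever cell types such crypts held. Wild-type mice gave enteroendocrine cells (CD24-high, UEA-lectin-negative), Paneth cells (CD24-high, lectin-high) and CD274+CD69+ cells. The toxin-treated CD274+CD69+ cells were taken 1 day after the last dose of diphtheria toxin at 50 µg/kg, from mice labelled wild type with no receptor allele named. Goblet cells were sorted by the same 2 surface proteins from wild-type mice given 48 mg/kg DBZ at the start and at 12 h, and taken at 115 h.

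In a dividing cell, the origin recognition complex marks origins, Cdc6 and Cdt1 load the MCM helicase there in G1, and in S phase Cdc45 and the GINS complex turn it into a moving helicase. Primase and the alpha, delta and epsilon polymerases then copy the strands, held by the PCNA clamp, while the cell makes deoxynucleotides and wraps the new DNA in histones. Many of these genes are known targets of E2F transcription factors, and in the intestine proliferation is restricted to the crypt.

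The promoter window of each gene, 250 bases before to 50 after its start, was available from RefSeq (GRCm38.p6) for 38 of the 45 genes (84.4%). An E2F word (TTTCCCGC, TTTCGCGC, TTTGCCGC or TTTGGCGC, on either strand, where overlapping matches can occur) was present in 15 of these 38 windows (39.5%), against 704 of 27025 windows of all genes (2.60%). The 15 were those of Mcm3, Mcm5, Mcm6, Mcm7, Orc1, Orc3, Rfc3, Lig1, Pold1, Pold3, Gins3, Cdt1, Cdc6, Pole2 and Pola1. The NF-Y word CCAAT, on either strand, was present in 24 of 38 windows (63.2%) against 41.1% of all windows, and the SP1 word GGGCGG in 29 of 38 (76.3%) against 38.2%. A match is a description of letters and not a bound site. 4 upstream stretches are shown as examples, cut where a RefSeq gene begins, with the E2F words in capitals and the rest in lower case. Each is written 5′ to 3′ along the gene's own strand, and they come from a helicase subunit with an overlapping pair and a separate word (Mcm6 at chr1:128359706-128359865, minus strand), one with an overlapping pair alone (Mcm5 at chr8:75109349-75109467, plus strand), a GINS subunit with the word reversed (Gins3 at chr8:95633399-95633558, plus strand) and a clamp loader with the word beside the start (Rfc3 at chr5:151651209-151651368, minus strand).
Mcm6: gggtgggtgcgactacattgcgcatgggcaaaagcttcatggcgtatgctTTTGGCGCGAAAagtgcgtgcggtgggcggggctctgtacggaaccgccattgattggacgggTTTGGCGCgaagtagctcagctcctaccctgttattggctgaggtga
Mcm5: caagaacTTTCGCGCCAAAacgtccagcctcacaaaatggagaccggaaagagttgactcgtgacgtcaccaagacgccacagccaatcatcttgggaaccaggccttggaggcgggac
Gins3: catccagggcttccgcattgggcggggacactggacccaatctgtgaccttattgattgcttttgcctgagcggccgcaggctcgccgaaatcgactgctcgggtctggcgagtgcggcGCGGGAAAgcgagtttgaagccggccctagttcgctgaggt
Rfc3: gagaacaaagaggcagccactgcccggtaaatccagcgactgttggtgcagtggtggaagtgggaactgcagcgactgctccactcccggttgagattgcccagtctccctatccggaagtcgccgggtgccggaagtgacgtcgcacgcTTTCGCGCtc
In Mcm6 the words lay at positions -110 to -103, -106 to -99 and -47 to -40 from the start. Rfc3 had a further word, reversed, at positions 0 to 7, which lies past the end of the printed stretch. The genes with a word and those without one had similar spreads of level over the groups, with a median range of 3.76 on the log2 scale for the 15 with a word and 3.45 for the 23 without.

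The libraries held 11179085 to 27371108 counts. Levels are given as CPM, the count of a gene relative to the TMM-scaled total of its library. They compare libraries and not genes with each other, since no transcript length was used. Each comparison was tested with edgeR's quasi-likelihood test, and a gene is called higher or lower where its Benjamini-Hochberg adjusted p over all tested genes was below 0.05. The labels call the replicates biological without saying which share a mouse, so the p-values measure the spread between these samples. The targeted gene Atoh1 was at 1.49 and 1.74 CPM in the enterocyte progenitor crypts against 58.9 and 124 CPM in the DBZ crypts, whereas Rbpj was at 21.0 and 28.4 CPM in the Rbpj crypts against 39.5 and 32.8 CPM in the DBZ crypts. The libraries labelled Rbpj-deleted thus kept Rbpj reads, and the deleted stretch was not checked. The 2 CD274+CD69+ libraries, labelled with different kits, differed far less from each other (chi-square of 4.23 per gene) than the other 14 within-group pairs (27.8 to 194), though by more than sampling noise. 13 of the 45 genes overlap another protein-coding gene, among them Orc1, Orc3, Orc4, Mcm7, Rfc4 and Fen1, and with no stated strand setting reads of the overlap cannot be assigned.

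Replication gene RNA was highest in the Lgr5-GFP-Cre stem cells and lowest in goblet cells. The 45 genes together took 4350, 4152 and 3979 CPM in Lgr5-GFP-Cre cells, 2979 and 2990 CPM in Lgr5-GFP-DTR cells, 3067 and 3642 CPM in enterocyte progenitor crypts, 3770 and 2675 CPM in DBZ crypts and 3067 and 2408 CPM in Rbpj crypts. The sorted secretory and reserve-type groups lay lower, with Bmi1-GFP cells at 1774, 2089 and 1967 CPM, and with 2177 and 2115 CPM in CD274+CD69+ cells, 1753 and 1630 CPM in enteroendocrine cells and 1998 and 1864 CPM in Paneth cells. Goblet cells held 652 and 648 CPM, and the toxin-treated CD274+CD69+ cells 2918 and 2300 CPM. The Lgr5-GFP-Cre libraries were thus above every other library, and goblet cells were below every other replicated group without overlap. By group mean, the unsorted crypts and the other Lgr5 line came next after the Lgr5-GFP-Cre cells. The first toxin-treated CD274+CD69+ library (2918 CPM) was still above the second DBZ (2675 CPM) and second Rbpj (2408 CPM) libraries. In these bulk samples, fewer dividing cells and less RNA per cell cannot be told apart.

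**Figure D1:**
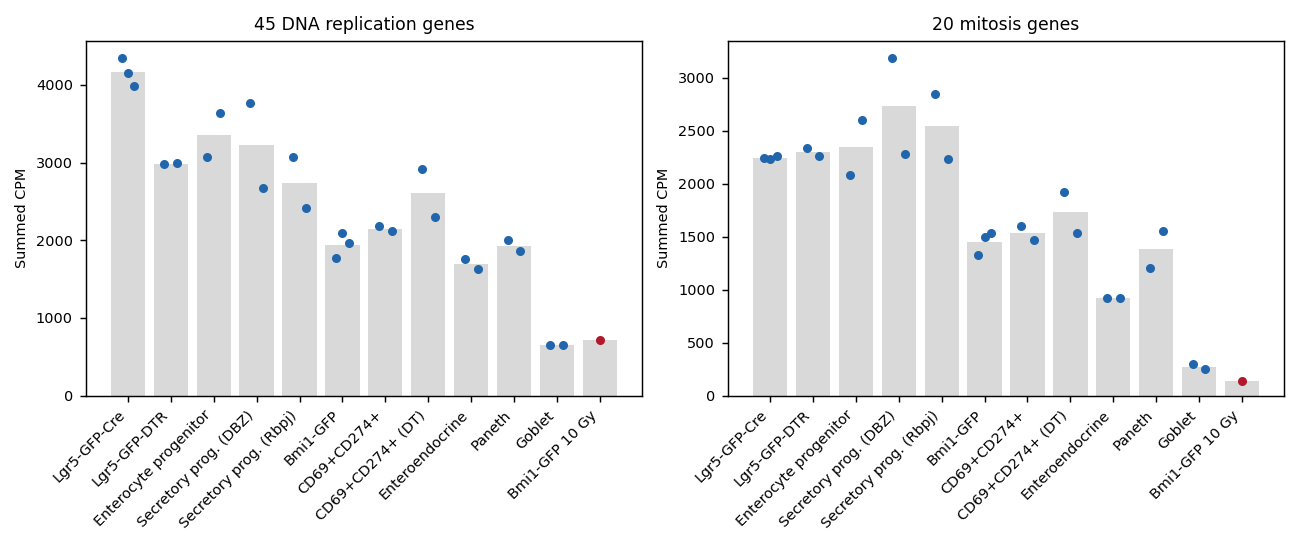
Summed level (CPM, linear axis from 0) of the 45 DNA replication genes (left) and of 20 mitosis genes (right) in each library (points), by group, with bars at the group means. The Lgr5-GFP-Cre libraries at 3979 to 4350 CPM are highest for the replication genes but not for the mitosis genes, where a DBZ library reaches 3190 CPM.

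All 45 genes differed somewhere among the 11 replicated groups in the edgeR test (90.6% of all tested genes did so, and 44 of the 45 did with DESeq2's size factors). By group mean, 22 genes were highest in Lgr5-GFP-Cre cells, 8 in enterocyte progenitor crypts, 5 in Lgr5-GFP-DTR cells, 5 in Rbpj crypts, 3 in DBZ crypts, and 1 each in toxin-treated CD274+CD69+ cells (Chaf1a) and Paneth cells (Rfc1). For 43 genes the lowest mean was in goblet cells, the exceptions being Rfc1, lowest in CD274+CD69+ cells, and Pola2, lowest in enteroendocrine cells. The range of group means ran from 0.87 on the log2 scale for Orc3 to 5.38 for Pold1, with a median of 3.48. Across the 11 group means, which share their libraries' composition, the correlation of a gene with the mean of the other 44 had a median r of 0.92, and 0.775 over the 10 groups without goblet cells. Over the 11 groups it exceeded 0.8 for 35 genes, and Rfc1 (r of -0.107) and Pola2 (0.204) stood lowest. Once goblet cells were left out, Pola2 reached 0.895 and Rfc1 stayed lowest (-0.276). Pole then fell from 0.599 to 0.072, Pola1 from 0.775 to 0.253 and Rpa3 from 0.855 to 0.395.

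**Figure D2:**
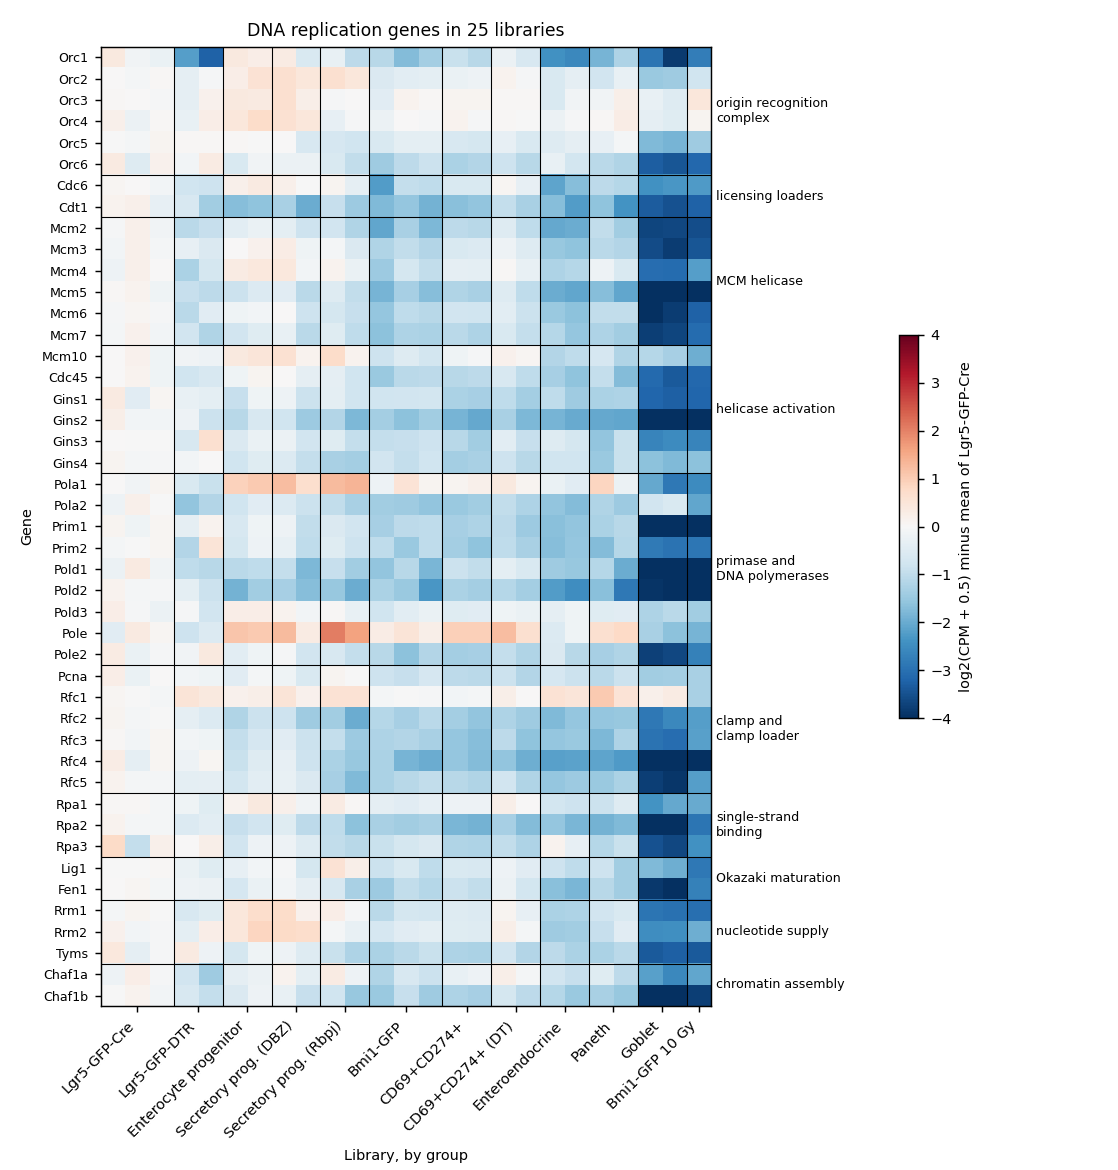
Level of each of the 45 genes (rows, grouped by role) in each of the 25 libraries (columns, by group), as log2(CPM + 0.5) minus the mean of the 3 Lgr5-GFP-Cre libraries, with blue lower and red higher. Blue fills most rows in goblet cells and in the irradiated library, while the rows of Rfc1, Orc3 and Orc4 stay paler in goblet cells and Rfc1 turns red in Paneth cells.

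Subunits of the origin recognition complex differed widely in how much they varied, with ranges of group means from 0.87 (Orc3) to 4.22 (Orc1) on the log2 scale. Orc1, the ATPase subunit made in G1, was at 18.2, 12.6 and 11.4 CPM in Lgr5-GFP-Cre cells, 18.2 and 16.8 CPM in enterocyte progenitor crypts, 17.5 and 8.93 CPM in DBZ crypts and 11.04 and 6.41 CPM in Rbpj crypts. In Bmi1-GFP cells it was at 6.10, 3.83 and 5.05 CPM, with 7.17 and 6.17 CPM in CD274+CD69+ cells, 11.7 and 8.595 CPM after toxin, 3.46 and 5.62 CPM in Paneth cells, 2.14 and 1.90 CPM in enteroendocrine cells, 2.57 and 1.01 CPM in Lgr5-GFP-DTR cells, 1.37 and 0.507 CPM in goblet cells and 1.60 CPM in the irradiated library. The 2 Lgr5 lines therefore did not overlap for Orc1, with the DTR cells as low as enteroendocrine cells. Orc6, the smallest subunit, was at 64.4, 34.98 and 56.8 CPM in Lgr5-GFP-Cre cells, 46.4 and 63.3 CPM in Lgr5-GFP-DTR cells, 33.0 and 45.8 CPM in enterocyte progenitor crypts, 42.8 and 43.0 CPM in DBZ crypts and 33.0 and 25.03 CPM in Rbpj crypts. Its level was 18.4, 24.3 and 27.3 CPM in Bmi1-GFP cells, 20.5 and 22.0 CPM in CD274+CD69+ cells, 28.1 and 23.3 CPM after toxin, 40.9 and 30.1 CPM in enteroendocrine cells, 23.6 and 21.6 CPM in Paneth cells, 4.65 and 4.22 CPM in goblet cells and 5.24 CPM in the irradiated library. The Lgr5-GFP-Cre libraries varied widely for Orc6, and the enteroendocrine libraries overlapped them. Orc3 and Orc4, core subunits also present outside S phase, had narrow ranges of 0.87 and 1.03 on the log2 scale over the 11 groups. In goblet cells Orc3 was still at 32.6 and 27.96 CPM, against 41.1, 40.7 and 38.8 CPM in Lgr5-GFP-Cre cells.

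The licensing loaders Cdc6 and Cdt1, which bring MCM to the origin, had different patterns in the crypts. Cdc6 was at 27.2, 26.4 and 24.1 CPM in Lgr5-GFP-Cre cells, 14.7 and 14.4 CPM in Lgr5-GFP-DTR cells, 29.9 and 33.2 CPM in enterocyte progenitor crypts, 29.8 and 25.5 CPM in DBZ crypts and 28.03 and 19.9 CPM in Rbpj crypts. Bmi1-GFP cells held 5.11, 13.0 and 12.6 CPM, with 16.9 and 16.9 CPM in CD274+CD69+ cells, 27.5 and 20.5 CPM after toxin, 5.67 and 7.66 CPM in enteroendocrine cells, 12.4 and 11.6 CPM in Paneth cells, 4.37 and 4.73 CPM in goblet cells and 4.93 CPM in the irradiated library. Both enterocyte progenitor libraries were above all 3 Lgr5-GFP-Cre libraries for Cdc6. Cdt1 was at 115, 122 and 82.9 CPM in Lgr5-GFP-Cre cells, 66.9 and 39.5 CPM in Lgr5-GFP-DTR cells, 31.8 and 33.9 CPM in enterocyte progenitor crypts, 42.3 and 26.4 CPM in DBZ crypts and 54.8 and 38.2 CPM in Rbpj crypts. Bmi1-GFP cells held 30.3, 35.5 and 28.2 CPM, with 32.5 and 35.02 CPM in CD274+CD69+ cells, 54.3 and 42.5 CPM after toxin, 31.9 and 21.8 CPM in enteroendocrine cells, 34.2 and 19.6 CPM in Paneth cells, 10.1 and 8.95 CPM in goblet cells and 10.8 CPM in the irradiated library. Every other library was below every Lgr5-GFP-Cre library for Cdt1, those of the crypts included.

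The 6 MCM genes, whose products form the hexameric helicase, were all lowest in goblet cells, while the highest group mean was in Lgr5-GFP-Cre cells for Mcm2, Mcm5, Mcm6 and Mcm7 and in enterocyte progenitor crypts for Mcm3 and Mcm4. Mcm2 was at 188, 224 and 179 CPM in Lgr5-GFP-Cre cells, 92.6 and 103 CPM in Lgr5-GFP-DTR cells, 145 and 162 CPM in enterocyte progenitor crypts, 149 and 109 CPM in DBZ crypts and 115 and 85.2 CPM in Rbpj crypts. In Bmi1-GFP cells it was at 46.1, 79.6 and 56.2 CPM, with 94.0 and 89.7 CPM in CD274+CD69+ cells, 138 and 96.5 CPM after toxin, 47.3 and 49.6 CPM in enteroendocrine cells, 98.8 and 74.6 CPM in Paneth cells, 14.9 and 15.4 CPM in goblet cells and 16.3 CPM in the irradiated library. No library of another group reached the Lgr5-GFP-Cre range for Mcm2. Mcm3 was at 109, 134 and 111 CPM in Lgr5-GFP-Cre cells, 93.4 and 79.1 CPM in Lgr5-GFP-DTR cells, 119 and 131 CPM in enterocyte progenitor crypts, 144 and 104 CPM in DBZ crypts and 112 and 78.2 CPM in Rbpj crypts. Among sorted cells, it was at 50.7, 58.7 and 52.1 CPM in the Bmi1-GFP libraries, 76.5 and 80.5 CPM in CD274+CD69+ cells, 101 and 81.5 CPM after toxin, 41.1 and 37.8 CPM in enteroendocrine cells, 55.3 and 52.0 CPM in Paneth cells, 9.29 and 7.94 CPM in goblet cells and 10.5 CPM in the irradiated library. For Mcm3 the crypts overlapped the Lgr5-GFP-Cre cells and the sorted secretory cells did not. Mcm5 was at 228, 240 and 195 CPM in Lgr5-GFP-Cre cells, 117 and 107 CPM in Lgr5-GFP-DTR cells, 122 and 150 CPM in enterocyte progenitor crypts, 161 and 104 CPM in DBZ crypts and 155 and 111 CPM in Rbpj crypts. In Bmi1-GFP cells it was at 59.7, 87.8 and 67.1 CPM, with 96.2 and 90.2 CPM in CD274+CD69+ cells, 153 and 109 CPM after toxin, 55.8 and 51.3 CPM in enteroendocrine cells, 66.6 and 52.3 CPM in Paneth cells, 9.20 and 10.6 CPM in goblet cells and 10.5 CPM in the irradiated library. Mcm5 was above every other library in all 3 Lgr5-GFP-Cre libraries, crypts included. Mcm6 was at 316, 350 and 320 CPM in Lgr5-GFP-Cre cells, 156 and 239 CPM in Lgr5-GFP-DTR cells, 293 and 307 CPM in enterocyte progenitor crypts, 335 and 183 CPM in DBZ crypts and 199.6 and 173 CPM in Rbpj crypts. Bmi1-GFP cells held 113, 164 and 151 CPM, with 191 and 187 CPM in CD274+CD69+ cells, 245 and 182 CPM after toxin, 118 and 106 CPM in enteroendocrine cells, 167 and 164 CPM in Paneth cells, 20.1 and 23.0 CPM in goblet cells and 34.3 CPM in the irradiated library. The 2 DBZ libraries were far apart for Mcm6, the first within and the second below the Lgr5-GFP-Cre range.

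Pcna, the sliding clamp, and Rrm2, the regulated subunit of ribonucleotide reductase, stand for the elongation step and its precursor supply. Pcna was at 262, 181 and 221 CPM in Lgr5-GFP-Cre cells, 204 and 196 CPM in Lgr5-GFP-DTR cells, 160 and 205 CPM in enterocyte progenitor crypts, 196 and 142 CPM in DBZ crypts and 238 and 216 CPM in Rbpj crypts. Its level in Bmi1-GFP cells was 122, 116 and 138 CPM, with 105 and 103 CPM in CD274+CD69+ cells, 121 and 97.6 CPM after toxin, 139 and 119 CPM in enteroendocrine cells, 103 and 120 CPM in Paneth cells, 82.6 and 84.4 CPM in goblet cells and 88.0 CPM in the irradiated library. Pcna thus kept a higher share of its stem cell level in goblet cells than the MCM genes did, with a range over the groups of 1.44 on the log2 scale against 3.51 to 4.48 for the 6 MCM genes. Rrm2 was at 90.7, 74.7 and 78.7 CPM in Lgr5-GFP-Cre cells, 61.9 and 97.3 CPM in Lgr5-GFP-DTR cells, 111 and 149 CPM in enterocyte progenitor crypts, 137 and 132 CPM in DBZ crypts and 76.1 and 65.2 CPM in Rbpj crypts. Its level in Bmi1-GFP cells was 50.9, 58.4 and 61.4 CPM, with 58.1 and 56.9 CPM in CD274+CD69+ cells, 96.3 and 76.3 CPM after toxin, 30.0 and 30.8 CPM in enteroendocrine cells, 42.4 and 59.5 CPM in Paneth cells, 14.2 and 14.4 CPM in goblet cells and 20.7 CPM in the irradiated library. Rrm2 was highest in the enterocyte progenitor and DBZ crypts, above every Lgr5-GFP-Cre library.

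**Figure D3:**
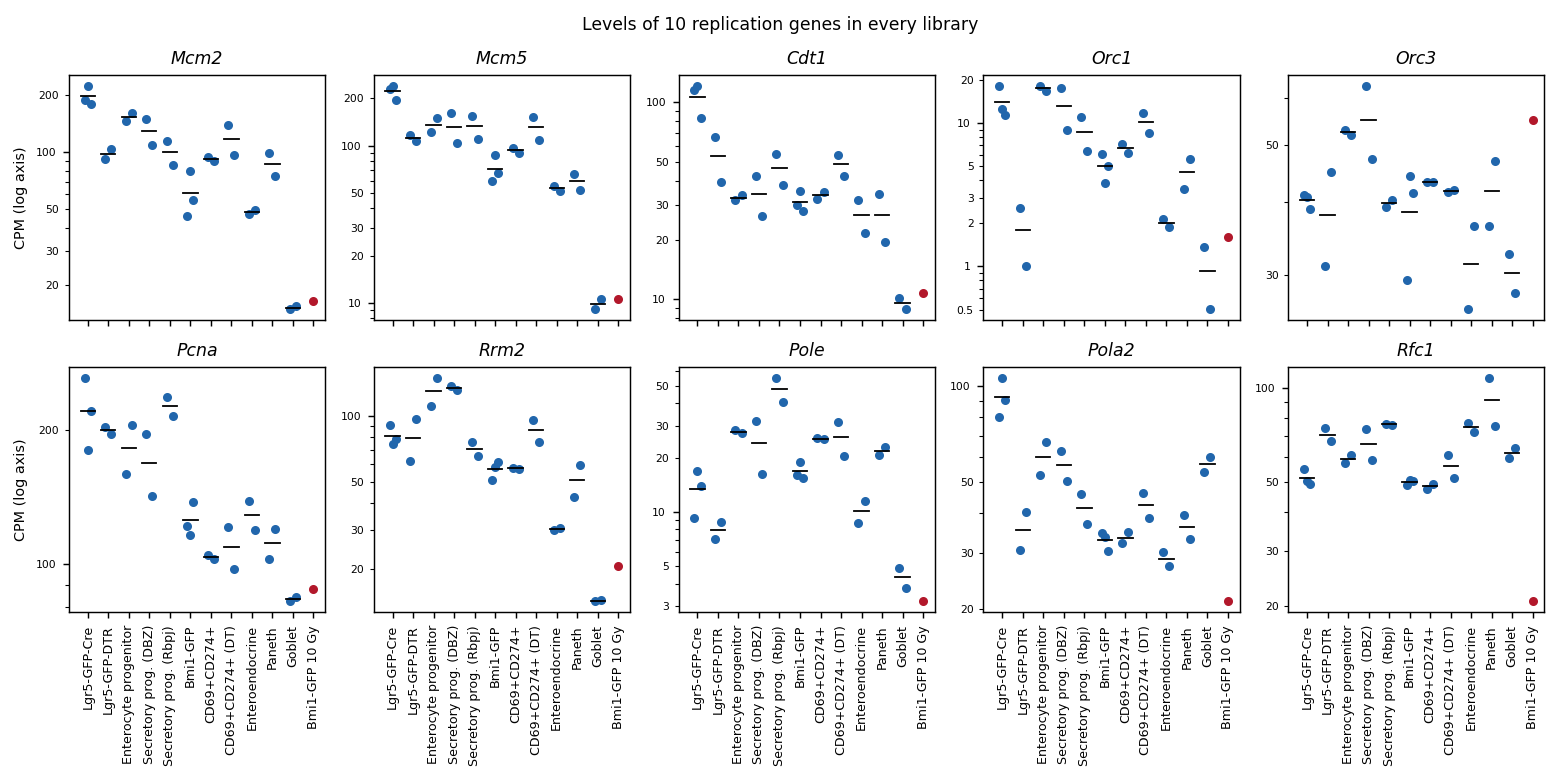
CPM (log axis) of 10 replication genes in every library (points; the irradiated library in red), by group, with lines at the means of groups with 2 or 3 libraries. Mcm2, Mcm5 and Cdt1 are highest in the Lgr5-GFP-Cre cells, and Rrm2 and Pole are highest in unsorted crypts. Over the 11 group means Orc3 and Rfc1 range by only 0.87 and 0.92 on the log2 scale. Rfc1 is at 59.7 and 64.1 CPM in goblet cells, but at 20.7 CPM in the irradiated library and 108 CPM in Paneth replicate 1.

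In Bmi1-GFP cells, a population discussed as a reserve stem cell, 40 of the 45 replication genes were lower than in Lgr5-GFP-Cre stem cells and 0 were higher (22.5% of all tested genes were lower and 27.9% higher). Their median log2 fold change was -1.15, against 0.09 over all tested genes. DESeq2 called 39 lower and 0 higher, and at an unadjusted p below 0.05 the counts were 40 and 0. The fall covered 6 of 6 MCM genes, 6 of 6 helicase activation genes, 7 of 9 primase and polymerase genes, 5 of 6 clamp genes and 4 of 6 origin recognition genes. Cdt1 fell by 1.78 ± 0.27 (log2, SE; edgeR adjusted p = 4.2e-05), as did Mcm2 (-1.72 ± 0.21, adjusted p = 7.3e-06), the GINS subunit Gins2 (-1.52 ± 0.24, adjusted p = 7.2e-05) and Orc1 (-1.52 ± 0.37, adjusted p = 2.6e-03). Rfc4, a clamp loader subunit, fell by 1.73, as did the polymerase delta subunit Pold2 (-1.66), the single-strand binding subunit Rpa2 (-1.35), the CAF-1 histone chaperone subunit Chaf1b (-1.29), the flap nuclease Fen1 (-1.21) and thymidylate synthase Tyms (-1.14). The 5 genes that were not called were Orc3 (-0.09), Orc4 (-0.12), Rfc1, the large clamp loader subunit (-0.07), and the catalytic polymerase subunits Pola1 (0.17) and Pole (0.32). The Bmi1-GFP libraries also held more RNA of all 5 T cell markers (summed 805 to 1986 CPM against 18.4 to 32.6) and all 5 enteroendocrine markers (2101 to 5728 CPM against 158 to 190), and less of all 5 stem cell markers (783 to 1293 CPM against 4827 to 6944). Their part in the result was not tested.

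**Figure D4:**
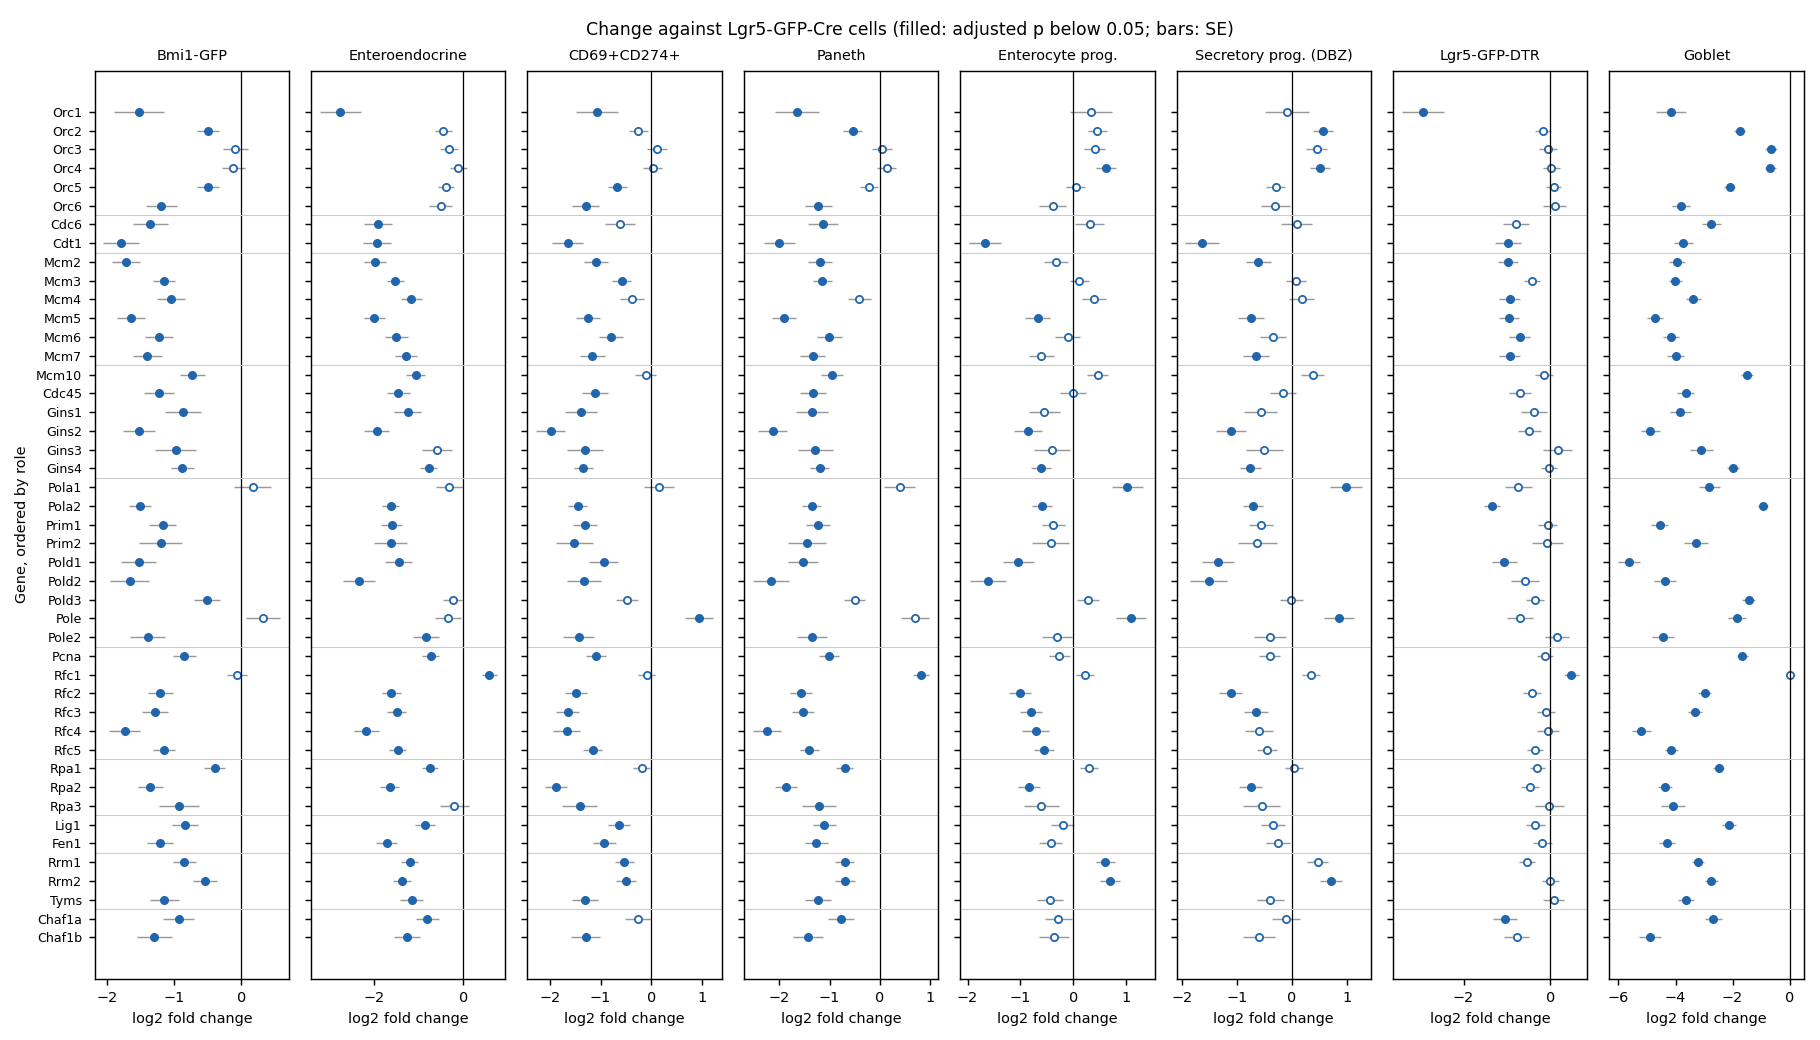
Log2 fold change of each of the 45 genes (rows, ordered by role) against the Lgr5-GFP-Cre cells in 8 groups (panels, which share these control libraries), with bars for the SE and filled points for an adjusted p below 0.05. Most points lie left of 0 in Bmi1-GFP, enteroendocrine, CD274+CD69+ and Paneth cells, both sides are occupied in the crypts, and goblet cells reach -5.62.

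Enteroendocrine cells, the hormone-making lineage, had 34 of 45 replication genes lower and 1 higher than Lgr5-GFP-Cre cells (20.4% and 25.5% of all tested genes). The median log2 fold change was -1.26, against 0.04 over all tested genes, and this comparison and the others against Lgr5-GFP-Cre cells share those 3 libraries. All 6 MCM genes were lower, as were 6 of 9 primase and polymerase genes, but only 1 of 6 origin recognition genes was called. That gene, Orc1, fell by 2.75 ± 0.46 (edgeR adjusted p = 1.4e-04), as did Pold2 (-2.33 ± 0.35, adjusted p = 5e-05), Rfc4 (-2.17) and Cdc6 (-1.91). Rrm2 fell by 1.37 ± 0.21 (adjusted p = 5.1e-05). Rfc1, at 77.4 and 72.2 CPM against 55.0, 50.5 and 49.3 CPM, rose by 0.59 ± 0.16 on the log2 scale (adjusted p = 6.7e-03), which did not pass once enteroendocrine replicate 1 was dropped (0.49, adjusted p = 0.074). Enteroendocrine libraries held more of all 5 enteroendocrine markers, as their label asks (3170 to 6383 CPM against 158 to 190), and also of all 5 tuft (483 and 2524 CPM against 9.58 to 15.02) and all 5 myeloid markers (222 to 374 CPM against 6.58 to 7.85). The part of these other cells in the result was not tested.

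Bmi1-GFP and enteroendocrine cells were also compared with each other. Of the 45 replication genes, 2 were higher in Bmi1-GFP cells, Orc1 (1.23 ± 0.44, edgeR adjusted p = 0.048) and Rrm2 (0.83 ± 0.20, adjusted p = 7.3e-03), and 1 was lower, Rfc1 (-0.66 ± 0.16, adjusted p = 7.5e-03). Among all tested genes 12.6% were higher and 12.1% lower. The median over the 45 was 0.23, and 3 were lower and 4 higher at an unadjusted p below 0.05. Without enteroendocrine replicate 1 none of the 3 was called at an adjusted p below 0.05 (Orc1 1.36, Rrm2 0.85, Rfc1 -0.57), and without enteroendocrine replicate 2 the counts were 2 lower and 1 higher. The Orc1 call was also lost without Bmi1-GFP replicate 1 (1.14, edgeR adjusted p = 0.094) or replicate 3 (1.23, adjusted p = 0.086). A fit of the compared groups only lost it as well (1.29, edgeR adjusted p = 0.058). Without enteroendocrine replicate 2 the Orc1 log2 fold change was 1.10. Of the 20 mitosis genes, 8 were higher in Bmi1-GFP cells, and whether the lists differ in this was not tested. Bmi1-GFP libraries held less of all 5 Paneth markers (4653 to 7596 CPM against 34240 to 36330) and 4 of 5 myeloid markers (17.02 to 31.95 CPM against 222 to 374). They held more of all 5 enterocyte markers (3182 to 8720 CPM against 888 to 1624) and 4 of 5 T cell markers (805 to 1986 CPM against 131 to 164), and the part of these in the result was not tested.

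CD274+CD69+ cells had 33 of 45 replication genes lower and 1 higher than Lgr5-GFP-Cre cells (21.3% and 24.0% of all tested genes), with a median log2 fold change of -1.10 against 0.00 over all tested genes. The largest decreases were in Gins2, which fell by 1.99 ± 0.28 (edgeR adjusted p = 2.5e-05), and Rpa2, which fell by 1.88 ± 0.22 (adjusted p = 3.2e-06). Rfc4 fell by 1.67, as did Cdt1 (-1.65), the primase subunit Prim2 (-1.52) and Orc6 (-1.30). Mcm4 (-0.38), Cdc6 (-0.62), Mcm10 (-0.11) and Chaf1a (-0.25) were not called. Pole, the catalytic subunit of polymerase epsilon, was at 25.6 and 25.3 CPM against 9.25, 16.9 and 13.9 CPM, and rose by 0.94 ± 0.28 (adjusted p = 0.010). The call was lost without replicate 1 or 2 of the CD274+CD69+ cells (0.92 and 0.97, adjusted p = 0.057 and 0.050) and with kit as a term (0.92, adjusted p = 0.056), with the fold change nearly as large each time. All 5 stem cell markers (980 to 996 CPM against 4827 to 6944) and all 5 Paneth markers (9117 to 11380 CPM against 26000 to 31240) were lower in the CD274+CD69+ libraries. All 5 enterocyte markers (7660 to 7907 CPM against 1295 to 2435) and 4 of 5 goblet markers (8127 to 9287 CPM against 1282 to 2181) were higher, and the part of any of these in the result was not tested.

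Between Bmi1-GFP and CD274+CD69+ cells, 3 of 45 genes were lower in Bmi1-GFP cells and 0 higher by edgeR (9.24% and 9.72% of all tested genes). They were Mcm4 (-0.67 ± 0.23, edgeR adjusted p = 0.048), the initiation factor Mcm10 (-0.62 ± 0.21, adjusted p = 0.043) and Mcm3 (-0.57 ± 0.18, adjusted p = 0.037). All 3 calls were lost with DESeq2, which called 0 lower and 2 higher, and without either CD274+CD69+ library or Bmi1-GFP replicate 1 or 3. At an unadjusted p below 0.05, 7 were lower and 2 higher, and the median was -0.06. The levels in every library of Mcm3, given above, did not overlap between these groups. T cell markers (all 5 higher, 805 to 1986 CPM against 32.1 to 113) and tuft markers (all 5 higher, 141 to 334 CPM against 3.51 to 3.70) differed between these groups as well, and their part in the result was not tested.

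Paneth cells, the antimicrobial cells at the crypt base, had 37 of 45 genes lower and 1 higher than Lgr5-GFP-Cre cells (19.1% and 21.6% of all tested genes), with a median log2 fold change of -1.23 against 0.01 over all tested genes. Rfc4 fell by 2.25 ± 0.28 (edgeR adjusted p = 1e-05), as did Pold2 (-2.16 ± 0.35, adjusted p = 1.2e-04), Gins2 (-2.13), Mcm5 (-1.91) and Rpa2 (-1.86). Origin recognition genes were again divided, with Orc1, Orc2 and Orc6 lower and Orc3 (0.03), Orc4 (0.14) and Orc5 (-0.21) not called. The Orc2 call was lost without the filter, with the replicate number as a block, and without Lgr5-GFP-Cre replicate 1 or 3. It was also lost in a fit of the compared groups only (-0.53, edgeR adjusted p = 0.155). Without Paneth replicate 1 the log2 fold changes were -0.33 for Orc2 and -1.36 for Orc1. Rfc1 was at 108 and 75.6 CPM against 55.0, 50.5 and 49.3 CPM, without overlap, and rose by 0.82 ± 0.16 (adjusted p = 6.9e-04). The Paneth libraries held 159800 and 241900 CPM of the 5 Paneth markers and still 1829 to 2812 CPM of the 5 stem cell markers. In Lgr5-GFP-Cre cells the latter summed to 4827 to 6944 CPM, with 3 of 5 lower in the Paneth libraries and 0 higher. Lgr5 itself was at 117 and 76.2 CPM in Paneth cells against 62.7, 94.9 and 77.7 CPM. The part of this stem cell RNA in the levels was not tested.

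In enterocyte progenitor and DBZ crypts some genes were lower and some higher than in the sorted stem cells. The share called higher was below that of all tested genes. In enterocyte progenitor crypts 12 of 45 genes were lower and 5 higher than in Lgr5-GFP-Cre cells (17.2% and 22.2% of all tested genes), with a median log2 fold change of -0.33 against 0.00 over all tested genes. The 12 lower genes included Cdt1, which fell by 1.67 ± 0.31 (edgeR adjusted p = 4.1e-04), and Pold2, which fell by 1.61 ± 0.34 (adjusted p = 1.3e-03). They also included the polymerase delta catalytic subunit Pold1 (-1.04) and the single-strand binding subunit Rpa2 (-0.84). The 5 higher genes were Pole (1.10 ± 0.28, adjusted p = 4.7e-03), Pola1, the catalytic subunit of polymerase alpha (1.02 ± 0.29, adjusted p = 0.011), Rrm2 (0.70), Orc4 (0.62) and Rrm1, the large subunit of ribonucleotide reductase (0.61). Pola1 was at 38.0 and 41.7 CPM against 20.2, 18.0 and 21.6 CPM, and Pole at 28.3 and 27.5 CPM against 9.25, 16.9 and 13.9 CPM, neither with overlap. Of the MCM genes only Mcm5 was called (-0.67). The counts rest on single libraries: 4 genes were lower without enterocyte progenitor replicate 1, 7 without Lgr5-GFP-Cre replicate 1, and 1 was higher without enterocyte progenitor replicate 2. A fit of the compared groups only gave 3 higher. These crypts held almost no secretory RNA, with all 5 Paneth markers lower (32.2 and 54.9 CPM against 26000 to 31240), and less stem cell RNA (1585 to 1958 CPM against 4827 to 6944, all 5 lower). They also held more tuft (433 to 901 CPM against 9.58 to 15.02) and T cell RNA (184 to 246 CPM against 18.4 to 32.6, all 5 of each higher). The part of these in the result was not tested.

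DBZ crypts gave the same counts, 12 of 45 lower and 5 higher than Lgr5-GFP-Cre cells (15.7% and 21.0% of all tested genes), with a median of -0.40 against 0.03 over all tested genes. Cdt1 fell by 1.63 ± 0.31 (edgeR adjusted p = 4.9e-04), as did Pold2 (-1.51), Pold1 (-1.34), Gins2 (-1.11) and Rfc2 (-1.11), and 3 of 6 MCM genes (Mcm2, Mcm5 and Mcm7) were lower. The 5 higher genes were Pola1 (0.98 ± 0.29, adjusted p = 0.014), Pole (0.86), Rrm2 (0.71 ± 0.19, adjusted p = 8.3e-03), Orc2 (0.56) and Orc4 (0.51). Without DBZ replicate 2, 3 genes were lower, and without DBZ replicate 1, 18 were lower and 1 higher. Without Lgr5-GFP-Cre replicate 2, 3 were higher, and a fit of the compared groups only gave 2 higher. All 5 stem cell markers were lower in the DBZ crypts (220 to 1382 CPM against 4827 to 6944), 4 of 5 goblet markers were higher (5493 to 6953 CPM against 1282 to 2181) and all 5 tuft markers were higher (81.8 CPM in each library against 9.58 to 15.02). The 2 DBZ libraries themselves differed, the second holding less of the 45 genes (2675 against 3770 CPM), less stem cell RNA (220 against 1382 CPM) and more enterocyte RNA (7205 against 1187 CPM), and the part of these in the result was not tested.

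Set directly against each other, DBZ and enterocyte progenitor crypts differed in 0 of 45 replication genes by edgeR, by DESeq2, and at an unadjusted p below 0.05 (1.89% of all tested genes were higher and 0.573% lower by edgeR). The log2 fold changes lay between -0.43 (Orc1) and 0.18 (Fen1), with a median of -0.10, although secretory markers differed strongly (all 5 goblet markers higher, 5493 to 6953 CPM against 27.03 to 55.03). Cdt1 (0.03), Pola1 (-0.04) and Rrm2 (0.01) were near 0, with SEs of 0.32, 0.32 and 0.21.

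Rbpj crypts had 4 of 45 replication genes lower and 2 higher than DBZ crypts (11.9% and 12.9% of all tested genes), with a median of -0.32. The lower genes were the clamp loaders Rfc5 (-1.07 ± 0.20, edgeR adjusted p = 7.4e-04) and Rfc4 (-0.79), Rrm2 (-0.88) and Orc4 (-0.68), and the higher ones Pole (1.03 ± 0.31, adjusted p = 0.020) and Lig1, the ligase that joins Okazaki fragments (0.80). The Rbpj libraries carry a TruSeq label and the DBZ libraries a SMART-Seq v4 label. Kit and the source of the crypts therefore cannot be told apart. Kit as a term rests only on the kits named for the CD274+CD69+ pair, whose libraries differed little (chi-square of 4.23 per gene). It thus cannot show whether kit changed these genes. With it none of the 6 was called, and the fold changes stayed about as large (among them Rfc5 -1.19, Rrm2 -0.94, Orc4 -0.88, Pole 0.98 and Lig1 0.72). Of the markers, 4 of 5 for T cells were higher in the Rbpj crypts (157 to 215 CPM against 45.9 to 101), and their part in the result was not tested. Without DBZ replicate 1 or without Rbpj replicate 2 the lower count was 2, without DBZ replicate 2 it was 9 with 0 higher, and without Rbpj replicate 1 the counts were 6 and 0.

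The 2 Lgr5 lines, both labelled intestinal stem cells, differed in 11 of the 45 genes. In Lgr5-GFP-DTR cells 10 were lower and 1 higher than in Lgr5-GFP-Cre cells (11.1% and 9.49% of all tested genes), with a median of -0.35 against -0.04 over all tested genes. The helicase accounted for 5 of the 10, with Mcm2 (-0.97 ± 0.24, edgeR adjusted p = 7.7e-03), Mcm5 (-0.94), Mcm4 (-0.93), Mcm7 (-0.93) and Mcm6 (-0.70) lower. Orc1 fell by 2.94 ± 0.49 (adjusted p = 6.0e-04), as did the polymerase alpha regulatory subunit Pola2 (-1.34 ± 0.19, adjusted p = 2.1e-04). Pold1 (-1.06), Chaf1a (-1.05) and Cdt1 (-0.97) completed the lower genes, and Rfc1 was the higher one (0.49, adjusted p = 0.041). The 6 helicase activation genes had a median of -0.26, and none of them is among the 11. In a fit of the compared groups only, 2 genes were lower, Orc1 and Pola2, and none of the 5 MCM genes was called (-0.62 to -0.89, adjusted p = 0.064 to 0.204). Without Lgr5-GFP-DTR replicate 2, 6 genes were lower and 0 higher, and the Rfc1 call was also lost without Lgr5-GFP-DTR replicate 1 and without Lgr5-GFP-Cre replicate 2 or 3. Lgr5-GFP-DTR libraries held 105000 and 135700 CPM of Paneth markers against 26000 to 31240 CPM, and tuft markers at 648 and 949 CPM against 9.58 to 15.02 CPM (all 5 of each higher), and their part in the result was not tested.

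Diphtheria toxin was given to the mice of 1 CD274+CD69+ group. Against the untreated CD274+CD69+ cells, 0 of 45 genes were called by edgeR or DESeq2, and 0 were lower and 2 higher at an unadjusted p below 0.05 (0.101% of all tested genes were lower and 0.0741% higher). The log2 fold changes ran from -0.12 (Rfc4) to 0.64 (Gins3) with a median of 0.31, against 0.015 over all tested genes, and 42 of 45 were above 0. The first treated library was the higher one, with Cdc6 at 27.5 CPM and Mcm2 at 138 CPM, while the second lay nearer the untreated cells. The treated and untreated mice differed in sex by the reads of Xist (67.0 and 73.0 CPM against 0 and 0.135 CPM), which cannot be told apart from the treatment, and their enterocyte markers differed too (all 5 lower, 2365 to 4512 CPM against 7660 to 7907), with a part that was not tested.

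Goblet cells, the mucus-secreting lineage, had 44 of the 45 replication genes lower than Lgr5-GFP-Cre cells and 0 higher (35.4% and 34.4% of all tested genes; DESeq2 called 43 and 0, and 44 and 0 passed at an unadjusted p below 0.05). The median log2 fold change was -3.38, against 0.00 over all tested genes. Pold1 was at 3.46 and 2.36 CPM against 102, 155 and 108 CPM, and fell by 5.62 ± 0.39 on the log2 scale (edgeR adjusted p = 5.7e-10). Rfc4 fell by 5.19 ± 0.34 (adjusted p = 3.1e-10), as did Chaf1b (-4.90), Gins2 (-4.88), Mcm5 (-4.72 ± 0.29, adjusted p = 1.5e-10), the catalytic primase subunit Prim1 (-4.56), Rpa2 (-4.37), Fen1 (-4.30), Orc1 (-4.16) and Tyms (-3.64). Decreases were smallest in Orc3 (-0.65), Orc4 (-0.67) and Pola2 (-0.93), and Rfc1 was not called (0.02 ± 0.16). Pola2 was at 53.9 and 60.1 CPM, above the CD274+CD69+ cells at 32.1 and 34.9 CPM and below the stem cells at 80.2, 106 and 90.7 CPM. The Orc3 call was lost without Lgr5-GFP-Cre replicate 3 or goblet replicate 2 and with DESeq2, and the Orc4 call without Lgr5-GFP-Cre replicate 3. DESeq2's size factors shift the log2 fold change of all genes by a median of 0.241 here and 0.282 in the next comparison. The goblet libraries held more of all 5 goblet markers (52940 to 91120 CPM against 1282 to 2181). They also held more of all 5 enterocyte markers (73400 to 84090 CPM against 1295 to 2435). Of the stem cell markers, 4 of 5 were lower (summed 35.4 to 59.6 CPM against 4827 to 6944). The part of these in the result was not tested.

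Against the DBZ crypts taken earlier after the same drug, goblet cells had 43 of 45 genes lower and 0 higher (30.1% and 24.9% of all tested genes; DESeq2 called 43 and 0, and 43 and 0 passed at an unadjusted p below 0.05). The median was -3.26, against -0.07 over all tested genes. Rfc4 fell by 4.60 ± 0.34 (edgeR adjusted p = 5.4e-09), as did Mcm3 (-4.08 ± 0.23, adjusted p = 6.3e-10), Fen1 (-4.05) and Rrm1 (-3.68), and only Rfc1 (-0.33) and Pola2 (-0.22) were not called. The crypts are unsorted and from Atoh1 F/F mice, while the goblet cells are sorted and from wild-type mice. Time, sorting and genotype therefore cannot be told apart. The goblet libraries held 52940 to 91120 CPM of the 5 goblet markers but also 73400 to 84090 CPM of the 5 enterocyte markers, against 1187 to 7205 CPM in the DBZ crypts, and the part of enterocyte RNA in the result was not tested.

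The single library of Bmi1-GFP cells 36 h after 10 Gy was below all 3 unirradiated Bmi1-GFP libraries for 43 of 45 genes and above them for 2, Orc3 and Orc4 (43.0% of all tested genes were below and 39.3% above). With 1 library there is no test. The median log2 difference from the unirradiated mean was -1.64, with -2.22 over the 9 primase and polymerase genes, -1.92 over the 6 MCM genes and -0.65 over the 6 origin recognition genes. Mcm5 was at 10.5 CPM against 59.7, 87.8 and 67.1 CPM, Pold2 at 9.43 CPM against 47.7 to 100.1 CPM, and Rfc1 at 20.7 CPM against 48.9 to 50.6 CPM. Rfc1 was thus lower in the irradiated library than in any other of the 25, while Orc3, at 55.2 CPM against 29.4 to 44.3 CPM, was near its highest. In this library the 5 enterocyte markers summed to 67240 CPM against 3182 to 8720 CPM (all 5 higher) and the 5 stem cell markers to 43.6 CPM against 783 to 1293 CPM (all 5 lower), and their part in the result was not tested.

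**Figure D5:**
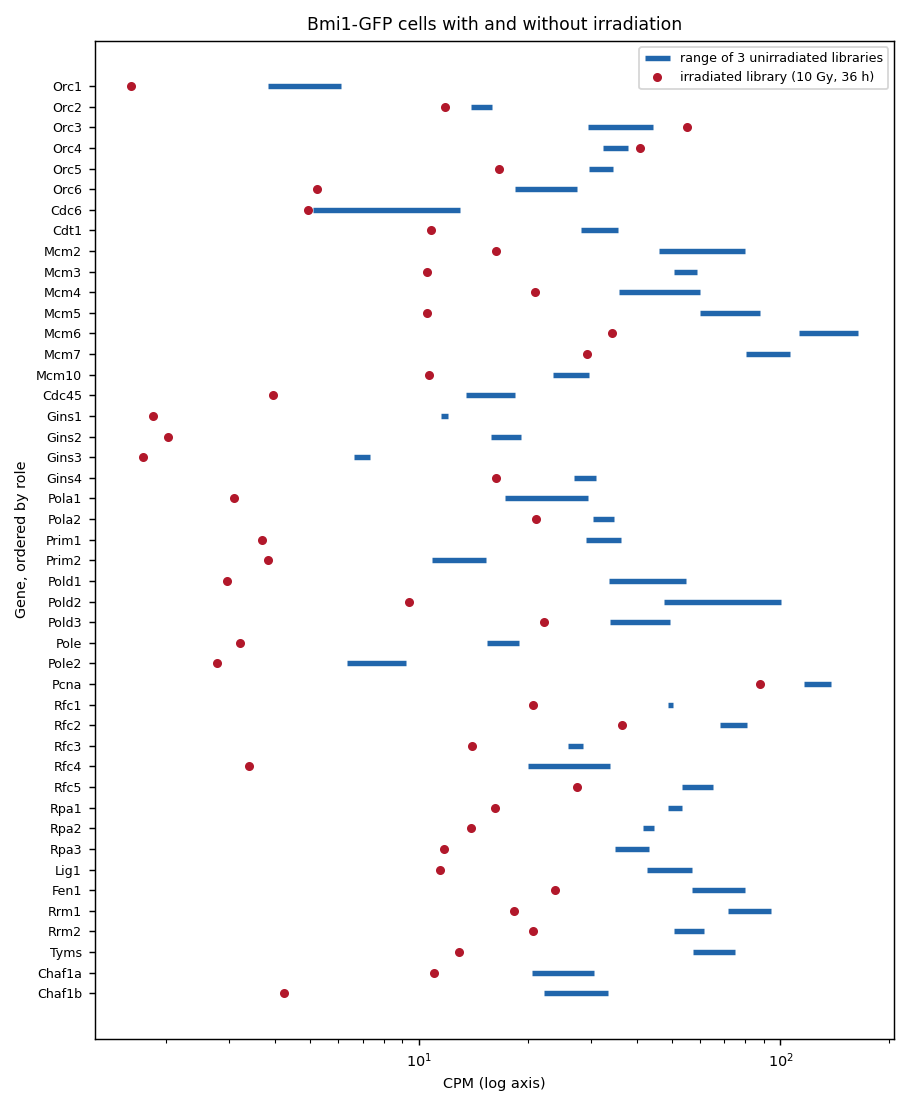
CPM (log axis) of each of the 45 genes in the irradiated Bmi1-GFP library (red points) beside the range of the 3 unirradiated Bmi1-GFP libraries (blue bars). Points lie left of the bar for 43 genes and right of it for Orc3 and Orc4.

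A second list of 64 other replication genes, and one of 20 mitosis genes, were counted in the same way, and the shares of all tested genes called in each comparison, given above, are their background too. Against Lgr5-GFP-Cre cells, 35 of the 64 were lower and 6 higher in Bmi1-GFP cells, 33 and 6 in enteroendocrine cells, 31 and 9 in CD274+CD69+ cells, 36 and 5 in Paneth cells and 50 and 8 in goblet cells. Among them the one-carbon enzyme Shmt1, which serves thymidylate synthesis, fell by 1.64 ± 0.17 (edgeR adjusted p = 1.7e-06), as did the activator E2f1 (-1.83 ± 0.26) in Bmi1-GFP cells. The CDK inhibitor Cdkn1a rose by 2.18 ± 0.29 (adjusted p = 1.5e-05), Cdkn1c by 3.36 and the pocket protein Rb1 by 2.10 there. In goblet cells Samhd1, which destroys deoxynucleotides, rose by 2.90 ± 0.18 (adjusted p = 1.8e-10) and Rb1 by 3.83. In enterocyte progenitor and DBZ crypts 18 of the 64 (28.1%) were higher in each, near the 22.2% and 21.0% of all tested genes, and 8 (12.5%) and 9 (14.1%) were lower, near 17.2% and 15.7%. Rb1 rose by 2.73 and 2.68 there. E2f1 fell in both, by 1.32 and 1.69.

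In Bmi1-GFP cells 13 of the 20 mitosis genes were lower and 1 higher than in Lgr5-GFP-Cre cells, the exception being the proliferation antigen Mki67 (0.64, edgeR adjusted p = 4.9e-03), and in goblet cells 20 of 20 were lower. In DBZ crypts 6 of 20 (30.0%, beside 21.0% of all tested genes) were higher and the median was 0.33, with Top2a, the mitotic topoisomerase, at 1.49 and Mki67 at 1.25 above the stem cells on the log2 scale, while 12 of the 45 replication genes were lower. Lgr5-GFP-DTR cells had 2 of 20 mitosis genes lower and 3 higher, beside 11.1% and 9.49% of all tested genes, with summed mitosis levels of 2334 and 2265 CPM against 2232 to 2258 CPM, beside the 10 lower replication genes. In the irradiated library all 20 mitosis genes were below the unirradiated range, with a median log2 difference of -3.30 against -1.64 for the replication genes. The difference between the lists was not tested.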

How the data were processed

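RNA-seq read counts per gene were taken as deposited by the authors in 1 table, with Bowtie2, TopHat2 2.0.6, DESeq2 and the build mm10 named per the submitters' processing notes. No counting tool, annotation or strand setting is given in the sources used here. Libraries were made with SMART-Seq v4 or TruSeq kits per the labels. The table covers 25 of the 49 samples, and the other samples (chromatin assays) were not analysed here.

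Genes were filtered with edgeR's filterByExpr (minimum count of 10, minimum total of 15), scaled by TMM and fitted in 1 quasi-likelihood model over the 24 libraries of 11 replicated groups (edgeR 4.0.16, R 4.3.3). The single irradiated library stayed out of the fit, and its CPM was set beside those of the unirradiated libraries. P-values were adjusted by Benjamini-Hochberg over all 14837 tested genes, with a threshold of 0.05. The 11179085 to 27371108 counts per library set the counting precision. The code was tested on simulated data. Sequences came from RefSeq windows (GRCm38.p6), matched by symbol for 38 of 45 genes; Gins4, Gins2, Pole, Mcm4, Prim2, Gins1 and Rfc2 were not matched.

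The genes, the lists and the tests were chosen with earlier results of these data known. All 45 genes are counted by role. Values in every library are given for Mcm2, Mcm3, Mcm5, Mcm6, Pcna, Rrm2, Cdt1, Cdc6, Orc1 and Orc6. In each comparison, the called genes with the largest change and the gene nearest 0 within a role may be named, with up to 4 genes per direction of lowest adjusted p from the other lists. Other names (such as Rfc1, Pola2 and Pole by library) were chosen after their values were seen. The alternatives were DESeq2's size factors, DESeq2's own test (1.42.0), no filter on low counts, a fit of the compared groups only, kit as a term, the replicate number as a block and each library left out.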

Additional observations from a re-analysis of the deposited data

How the results depend on the processing

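No fold change behind a call reversed its direction. Against Lgr5-GFP-Cre cells, leaving out 1 library at a time gave 34 to 39 lower genes in Bmi1-GFP cells, 29 to 34 in enteroendocrine cells (0 to 1 higher), 24 to 33 in CD274+CD69+ cells (0 to 1 higher), 29 to 36 in Paneth cells (1 to 2 higher), 42 to 44 in goblet cells, 4 to 15 in enterocyte progenitor crypts (1 to 5 higher), 3 to 18 in DBZ crypts (1 to 5 higher) and 6 to 10 in Lgr5-GFP-DTR cells (0 to 1 higher). The ranges were 42 to 43 lower for goblet cells against DBZ crypts, 2 to 9 lower and 0 to 2 higher for Rbpj against DBZ crypts, 0 to 2 lower and 0 to 3 higher for Bmi1-GFP against enteroendocrine cells, and 0 to 3 lower for Bmi1-GFP against CD274+CD69+ cells. With kit as a term, the higher gene in CD274+CD69+ cells (0), the lower genes of Bmi1-GFP against CD274+CD69+ cells (0) and both counts of Rbpj against DBZ crypts (0 and 0) were lost. A fit of the compared groups only gave 2 lower and 1 higher for Bmi1-GFP against enteroendocrine cells, 4 higher for Bmi1-GFP against CD274+CD69+ cells, 3 higher in enterocyte progenitor crypts, 2 higher in DBZ crypts, 2 lower and 0 higher for Rbpj against DBZ crypts, and 2 lower and 0 higher in Lgr5-GFP-DTR cells. DESeq2's test gave 2 lower for Bmi1-GFP against enteroendocrine cells, and both its test and its size factors gave 0 lower and 2 higher for Bmi1-GFP against CD274+CD69+ cells and 2 higher in Paneth cells. Without the filter, 3 genes were higher in DBZ crypts and 0 in Lgr5-GFP-DTR cells. With the replicate number as a block, 0 were lower for Bmi1-GFP against CD274+CD69+ cells, 3 were higher in DBZ crypts and 0 in Lgr5-GFP-DTR cells. The deviations of same-numbered libraries of compared groups correlated with r of -0.19 to 0.134, which cannot show whether the numbers pair the samples. The cause of these changes was not tested, except that leaving out a library or groups leaves fewer samples; where 1 library remained in a group, it was assumed to vary like the others. The single irradiated library was in no fit and allows no test.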
